A study of Oryza sativa with 12 samples.

Results

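The sites described here are the IDD7 binding sites that lie around the centromeres of the 12 rice chromosomes. OsIDD7 is a rice transcription factor of the indeterminate domain family, whose zinc fingers bind DNA. A site belongs to the centromere windows when its summit lies within 1 Mb of an approximate centromere position, which makes 1 window of 2 Mb per chromosome. The rule uses positions only, and it was proposed with earlier results of these data known. Under this rule 2132 of the 27495 summits of list A and 1799 of the 24744 summits of list B are members, and 1206 positions are members in both lists.

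The centromere is the stretch of a chromosome on which the kinetochore is built and to which spindle fibres attach. In rice its core consists of tandem copies of the CentO satellite together with centromeric retrotransposons of the Gypsy type, and the flanking pericentromere is rich in transposable elements, poor in genes and low in meiotic recombination. Rice centromeres differ widely in how much satellite they carry, and those of some chromosomes also hold active genes. In plant nuclei this DNA is packed as heterochromatin and heavily methylated at cytosines. DNA affinity purification sequencing (DAP-seq) removes the packing: naked, sheared genomic DNA is offered to the purified factor in vitro, so packing does not limit access, although in the standard assay methylation on the extracted DNA is kept.

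Per the labels, the series holds 6 libraries made with HaloTag-IDD7 and 6 made with HaloTag-GFP, the control protein. Biological replicates are numbered 2, 3 and 4, and each has technical replicates A and B. All 12 libraries used root DNA of the japonica cultivar Nipponbare colonized by the fungus Rhizophagus irregularis at more than 90%, grown with 25 uM phosphate and harvested 7 weeks after inoculation. The authors pooled the 3 biological replicates of each technical replicate and called IDD7 peaks relative to GFP, which gave list A and list B. The lists therefore measure repeatability between technical pools of in vitro binding to extracted DNA, not variation between plants or occupancy in living roots.

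Each entry of a list is a 500 bp interval, and its midpoint is called the summit. A list A summit with a list B summit within 250 bp is called shared, and any other summit belongs to list A only or list B only. The lists carry no peak height, so neither the strength of a site nor the depth behind it is known. Over the 12 chromosomes 56.8% of list A summits and 63.1% of list B summits were shared. No library-level values were used, and unsequenced bases and repeats in which short reads cannot be placed were not examined. The centromere positions are given to 0.1 Mb only, and no sequence or gene annotation of the coordinate build was at hand, so no gene is assigned to a site. Coordinates follow the lists' own build and count from 1.

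The first comparison asked whether IDD7 sites were more or less frequent around the centromeres than elsewhere on the same chromosome. Shared sites were more frequent on all 12 chromosomes. The centromere windows held 50.3 shared summits per Mb (SD 7.05, n = 12 chromosomes) and the rest of the chromosomes held 41.0 per Mb (SD 2.14). The difference was 9.29 shared summits per Mb (SD 7.24), a ratio of 1.23 (exact two-sided test by flipping the sign of each chromosome's difference, a permutation test; p = 0.000488, the smallest that 12 chromosomes can give; Benjamini-Hochberg adjusted p = 0.00366 over 15 tests). The windows made up 6.43% of the spanned length and held 7.74% of the shared summits on the numbered chromosomes. In the inner 500 kb on either side of the position the same difference was 5.19 per Mb, was positive on 9 chromosomes and did not pass the test (exact p = 0.165). With the positions moved 500 kb to the right it was 10.8 per Mb, positive on 12 chromosomes (exact p = 0.000488). Moved 500 kb to the left it was 6.86 per Mb, positive on 10 (exact p = 0.00928). The excess was thus not centred closely on the positions. Against sequence 1 to 5 Mb from the position it was 6.74 per Mb (exact p = 0.000488).

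The size of the excess differed widely between chromosomes. The window of chromosome 6 held 128 shared summits, or 64.0 per Mb, against 38.4 per Mb in the rest of that chromosome, a ratio of 1.67. Chromosome 12 had 54.5 per Mb in its window and 38.4 per Mb elsewhere, and chromosome 4 had 61.0 per Mb in its window and 44.3 per Mb elsewhere. Ratios for these were 1.42 and 1.38. Chromosome 10 followed with 52.5 per Mb in its window and 39.7 per Mb elsewhere, and chromosome 3 with 54.5 per Mb in its window and 44.6 per Mb elsewhere. At the low end stood chromosome 1, with 43.5 per Mb in its window and 42.2 per Mb elsewhere, a ratio of 1.03, and chromosome 9, with 43.0 and 40.6 per Mb, a ratio of 1.06. The other windows held 46.5 per Mb on chromosome 2, 43.5 on chromosome 5, 47.0 on chromosome 7, 45.0 on chromosome 8 and 48.0 on chromosome 11. Densities in the rest ran from 38.4 to 44.6 per Mb, so the windows, which are also far shorter, varied more from chromosome to chromosome than the remaining sequence did.

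**Figure D1:**
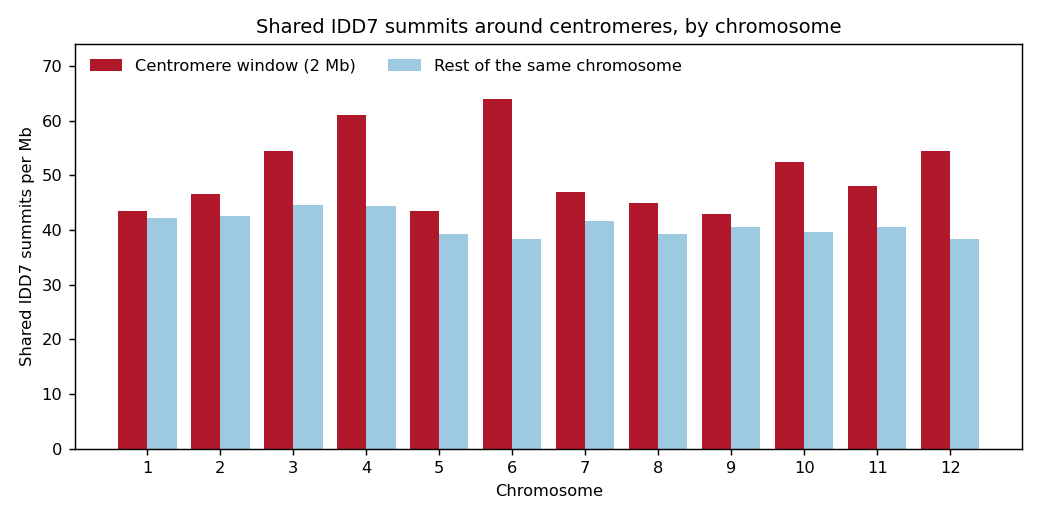
Shared IDD7 summits per Mb (vertical axis) for each of the 12 chromosomes (horizontal axis), with the 2 Mb centromere window in red and the rest of the same chromosome in blue. The red bar is the taller of each pair on all 12 chromosomes, by most on chromosome 6 (64.0 against 38.4 per Mb) and by least on chromosome 1 (43.5 against 42.2 per Mb).

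Set among windows of equal width on its own chromosome, the centromere window was not usually the richest. Each chromosome was tiled with 2 Mb windows outward from its centromere window, which gave 163 others. The centromere window held more shared summits than the median of the others on all 12 chromosomes. It ranked first on chromosomes 4, 6, 10 and 12, with a tie on chromosome 12, where 1 other window also held 109. On chromosome 6 the others ran from 55 to 99 shared summits, all below the 128 of the centromere window. On chromosome 1, in contrast, 7 of 19 other windows held more than the 87 of the centromere window, and up to 113. High counts of IDD7 sites are therefore also found far from centromeres.

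Both lists were denser in the windows, list A by more than list B (exact permutation p = 0.02 for the difference between their log2 ratios of density, adjusted p = 0.0429). Shared summits enter both lists, so the tests of each list are not separate from that of the shared summits. That difference between the lists did not pass in the inner 500 kb (exact p = 0.124) or with the positions moved 500 kb to the left (exact p = 0.185) or to the right (exact p = 0.0703). In list A the windows had 88.8 summits per Mb (SD 11.7) and the rest had 72.3 per Mb (SD 2.45, n = 12 chromosomes), higher in the windows on 11 chromosomes (exact permutation p = 0.000977, adjusted p = 0.00366). The exception was chromosome 5, with 70.0 per Mb in its window and 72.0 per Mb elsewhere. List B had 75.0 per Mb in the windows (SD 8.37) and 65.4 per Mb in the rest (SD 3.55), also higher on 11 chromosomes (exact p = 0.000977, adjusted p = 0.00366). Its exception was chromosome 1, with 66.0 per Mb in the window and 66.8 per Mb elsewhere. In the inner 500 kb neither list passed the test (exact p = 0.0669 for list A and 0.34 for list B). Counts per window ran from 140 to 221 in list A and from 129 to 185 in list B.

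The summits called in 1 pool only divided unequally. List A only summits had 38.6 per Mb in the windows (SD 6.80) and 31.4 per Mb elsewhere (SD 0.77), and were denser in the windows on 10 chromosomes (exact permutation p = 0.00684, adjusted p = 0.0171). The windows of chromosomes 6, 7 and 12 led with 46.5 per Mb each. Chromosomes 5 and 10 went the other way, with 26.5 and 30.0 per Mb in their windows against 32.7 and 31.1 per Mb in their remainders. List B only summits had 24.7 per Mb in the windows (SD 3.82) and 24.4 per Mb elsewhere (SD 1.85), with 6 chromosomes higher and 6 lower (exact p = 0.752). The difference was 0.31 per Mb with an SD of 3.29 over chromosomes. The excess of list A only summits did not pass in the inner 500 kb (exact p = 0.0713) or with the positions moved 500 kb to the left (exact p = 0.107).

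Recurrence between the pools moved accordingly, since each share is set by the densities of shared and unshared summits given above. The shares therefore give no separate evidence. In list B, 1206 of 1799 summits in the windows were shared, which is 67.0% (95% Wilson interval 64.8 to 69.2%), against 14382 of 22919 in the rest, which is 62.8% (62.1 to 63.4%). Averaged over chromosomes, the share of list B was 67.0% in the windows (SD 4.13) and 62.7% elsewhere (SD 1.43, n = 12), and was higher in the windows on 11 chromosomes (exact permutation p = 0.00195, adjusted p = 0.00586). Chromosome 4 had the highest share, 75.3% of its 162 list B summits in the window against 65.6% elsewhere. Chromosome 2 was the exception, with 58.1% in the window and 60.7% elsewhere. In the inner 500 kb the list B difference was 3.10 percentage points and did not pass (exact p = 0.119). In list A, 1206 of 2132 summits in the windows were shared, which is 56.6% (54.5 to 58.7%), against 56.8% in the rest (56.2 to 57.4%). On 6 chromosomes the list A share was higher in the window and on 6 it was lower, from 50% on chromosome 9 to 63.6% on chromosome 10 (exact permutation p = 0.956). The intervals cover counting error only, since neighbouring summits are not independent molecules.

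**Figure D2:**
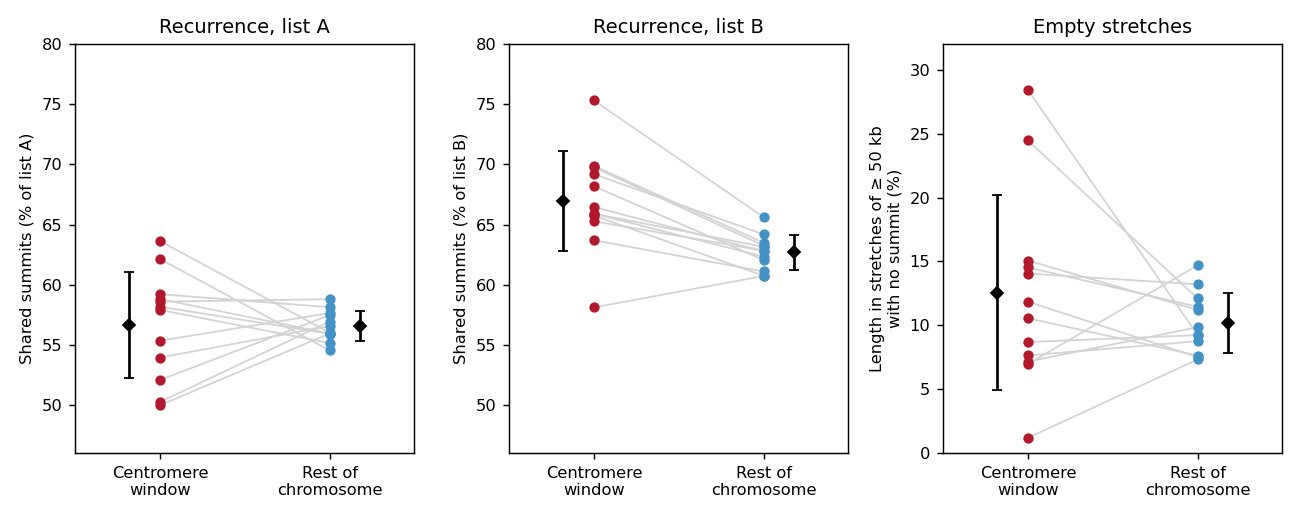
Share of list A summits (left) and of list B summits (middle) that were shared, and share of length lying in stretches of at least 50 kb without a summit (right), each in percent. Every dot is 1 chromosome, with its centromere window in red joined to its remainder in blue, and diamonds with bars are means and SD over 12 chromosomes. The list B share was higher in the window on 11 chromosomes, whereas list A shares were split 6 and 6, and the empty share of the windows ran from 1.21 to 28.4%.

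Where a site recurred, the summits of the pools nearly coincided, around centromeres as elsewhere. Partner summits lay a median of 16 bp apart in the windows (quartiles 7 and 36 bp) and 16 bp in the rest (6 and 34 bp). Per chromosome, medians in the windows ran from 12 to 19.5 bp. The mean of these medians was 16.2 bp in the windows and 15.6 bp elsewhere, a difference of 0.63 bp (SD 3.75), and did not pass the test (exact permutation p = 0.589). Of the 1206 shared members, 32 lay at the identical position in both lists and 51 lay more than 100 bp from their partner. At the edge of the 250 bp rule, the widest partner distance counted as shared was 246 bp and the nearest not counted was 256 bp. Of the list A members, 9 had a partner more than 200 and up to 250 bp away, and 14 had one 251 to 300 bp away. The window edge itself is a round distance: shared summits just inside it lay 975.4 to 997.8 kb from the position, and the first ones outside lay 1000.2 to 1033.6 kb away.

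Along the chromosome, mean density was not highest at the centromere position. Shared summits had 48.7 per Mb within 0.25 Mb of the position on either side (SD 15.0, n = 12 chromosomes) and 44.5 per Mb from 0.25 to 0.5 Mb (SD 13.4). Density was 52.3 per Mb from 0.5 to 0.75 Mb (SD 11.2) and 55.5 per Mb from 0.75 to 1 Mb (SD 17.3). It was still 52.2 per Mb from 1 to 1.5 Mb (SD 9.22), outside the windows, and 41.9 per Mb from 1.5 to 2 Mb (SD 6.20). From 5 to 7 Mb it was 39.4 per Mb (SD 2.65). List A only summits had between 36.7 and 40.2 per Mb in the 4 bins inside the windows and 31.1 per Mb at 5 to 7 Mb, and list B only summits stayed between 22.7 and 26.2 per Mb in every bin. The SD of shared density between chromosomes was larger in the bins inside the windows than beyond 1.5 Mb, and those bins are also shorter than the outer ones.

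**Figure D3:**
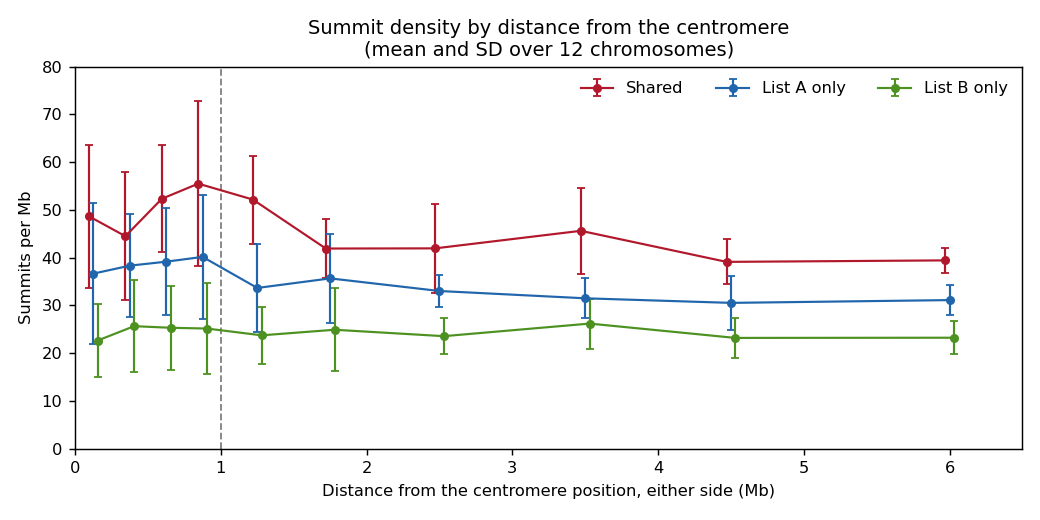
Summits per Mb (vertical axis) by distance from the centromere position in Mb, both sides combined (horizontal axis), for shared summits (red), list A only (blue) and list B only (green). Points are means and bars are SD over 12 chromosomes, and the dashed line marks the window edge at 1 Mb. Shared density was 55.5 per Mb from 0.75 to 1 Mb and 41.9 per Mb from 1.5 to 2 Mb.

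Within the windows, the inner 500 kb on each side had 46.6 shared summits per Mb (SD 11.5) and the outer 500 kb had 53.9 per Mb (SD 9.94). The inner part was lower on 8 of 12 chromosomes, with a mean difference, inner minus outer, of -7.33 per Mb (SD 16.2), and this did not pass the test (exact permutation p = 0.136, adjusted p = 0.204). The difference was -3.82 per Mb without chromosome 11, and 5.25 per Mb, the opposite direction, with the positions moved 500 kb to the left. Chromosome 11 had the steepest contrast, with 25.0 per Mb inside and 71.0 per Mb outside. Chromosomes 5, 6, 7 and 9 had the opposite order; on chromosome 6 the inner part held 70.0 per Mb and the outer part 58.0 per Mb. The 2 sides of the position held about equal numbers, 607 shared summits on the left and 599 on the right. On chromosome 4 the left side, which belongs to the heterochromatic short arm, held 51 and the right side 71, whereas on chromosome 10 the short arm side held 57 and the long arm side 48.

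The centromere positions themselves were not devoid of sites. The nearest shared summit lay within 10 kb of the position on 7 chromosomes and a median of 9.23 kb away over all 12. The closest was on chromosome 2 at 13602253, 2.25 kb right of the position. Chromosome 3 had one at 19395864 (4.14 kb away), chromosome 4 at 9694938 (5.06 kb) and chromosome 10 at 8205452 (5.45 kb). The furthest was on chromosome 9 at 2729718, 70.3 kb to the left. Because the positions are approximate to 0.1 Mb, these distances describe the rounded positions and not the satellite arrays.

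The windows held both dense and empty stretches. Counted in 100 kb bins, the 240 bins of the windows held a median of 5 shared summits, against 4 in 3474 bins elsewhere. Bins with at least 10 shared summits numbered 19 in the windows (7.92%) and 65 elsewhere (1.87%). Averaged over chromosomes the shares were 7.92% in the windows (SD 6.20) and 1.94% elsewhere (SD 0.68), and were higher in the windows on 9 chromosomes (exact permutation p = 0.0112, adjusted p = 0.0237 over 19 tests). Bins averaged 5.025 shared summits in the windows and 4.118 elsewhere. The class of at least 10 was chosen after the first results had been seen. A higher density by itself brings more bins of this kind, and its part in the difference was not tested. The difference did not pass in the inner 500 kb (3.68 percentage points, exact p = 0.0884) or for bins with at least 12 shared summits (2.15 points, exact p = 0.0625). Chromosomes 3, 6, 8 and 11 had 15% of their window bins in this class, whereas chromosomes 7, 9 and 12 had 0 of 20 such bins. Bins without any shared summit numbered 10 in the windows (4.17%) and 119 elsewhere (3.43%). The variance of bin counts divided by their mean was 1.75 in the windows (SD 0.73) and 1.31 elsewhere (SD 0.11), higher in the windows on 8 chromosomes, which did not pass the test (exact permutation p = 0.0776). This ratio passed when chromosome 9 (exact p = 0.042) or chromosome 12 (exact p = 0.0273) was left out.

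**Figure D4:**
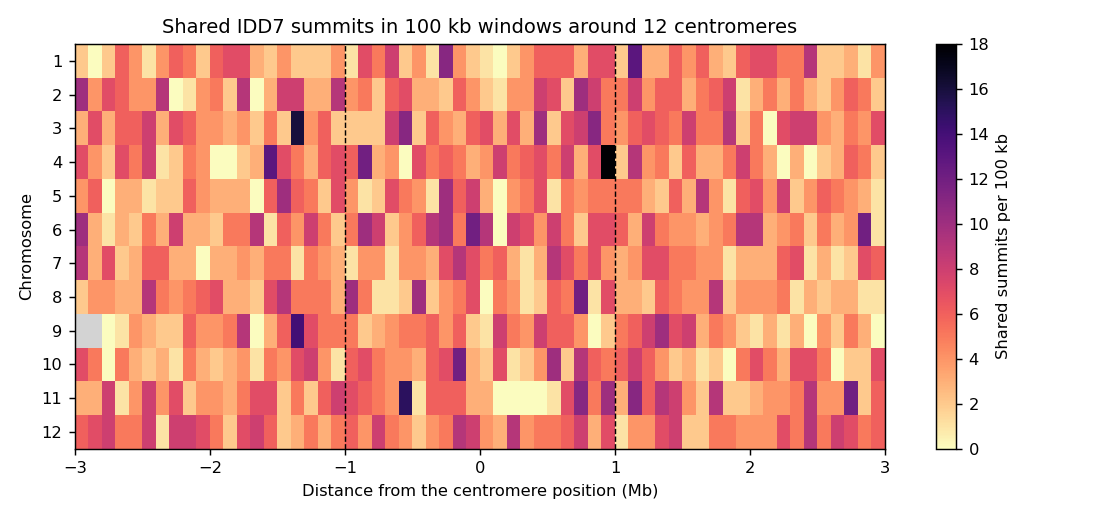
Shared IDD7 summits in 100 kb bins (colour) by distance from the centromere position in Mb (horizontal axis) for the 12 chromosomes (vertical axis). Dashed lines mark the window edges and grey marks positions beyond the chromosome end. The darkest bin lies at the right window edge of chromosome 4, with 18 shared summits, and the pale run to the right of the position on chromosome 11 comprises 4 bins with 0.

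The richest single bin of the windows lay on chromosome 4 from 10600001 to 10700000, where list A placed 21 summits and list B 22, and 18 of them were shared. Second was chromosome 11 from 11400001 to 11500000, where 15 of the 17 summits of each list were shared. The next 4 bins held 12 each, and the first of them by list A count was chromosome 8 from 13600001 to 13700000, with 19 summits of list A and 15 of list B. Freed from the grid, the densest run of chromosome 4 held 19 shared summits in 99.8 kb, from 10591528 to 10691291, centred 941 kb right of the position. Chromosome 11 had 16 in 95.9 kb, from 11413681 to 11509590, and chromosome 3 had 15 in 93.1 kb, from 18734131 to 18827241. The densest runs of the 12 windows held 11 to 19 shared summits. Nearest to its position was that of chromosome 12, with 12 shared summits in 74.8 kb and its middle 115.8 kb to the left.

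At the scale of a few kb, short chains of sites were more frequent around centromeres than elsewhere. A chain was counted where at least 3 shared summits followed each other with no gap above 2 kb. This measure was chosen after the first results had been seen. The windows held 30 chains on 10 chromosomes and the rest held 119, or 12.5 and 3.41 per 10 Mb. Averaged over chromosomes, windows had 1.25 chains per Mb (SD 0.99) and the rest had 0.34 per Mb (SD 0.14), with 9 of 12 chromosomes higher in the window (exact permutation p = 0.00781, adjusted p = 0.0209 over 19 tests). Of the shared summits, 8.37% in the windows and 2.63% elsewhere were members of a chain. Per chromosome these shares averaged 8.14% in the windows (SD 6.36) and 2.60% elsewhere (SD 1.07), higher in the window on 9 chromosomes (exact p = 0.0127, adjusted p = 0.0241). A higher density by itself brings summits closer together, and its part in the excess of chains was not tested. The count per Mb did not pass with gaps up to 1 kb (exact p = 0.251), with at least 4 summits a chain (exact p = 0.0625) or in the inner 500 kb (exact p = 0.0669). The share in chains kept its call in 5 of 8 alternatives (exact p up to 0.393).

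Chains were unequally distributed among the centromeres. Chromosome 11 had 3.00 per Mb in its window and 0.26 per Mb elsewhere, and chromosomes 4 and 12 had 2.50 per Mb in their windows, against 0.51 and 0.39 per Mb elsewhere. Chromosomes 1 and 2 had 0 in their windows. The largest chains held 5 shared summits. On chromosome 10 such a chain spanned 5.11 kb from 7351082 to 7356189, on chromosome 7 it spanned 5.43 kb from 12275278 to 12280706, and on chromosome 12 it spanned 5.63 kb from 12813071 to 12818697. The tightest chain of the windows placed 3 shared summits within 0.98 kb of chromosome 4, from 10646514 to 10647493, inside the densest run described above. Shared summits whose next shared neighbour lay 500 to 1000 bp away made up 4.82% in the windows (SD 2.59) and 3.56% elsewhere (SD 0.59, n = 12 chromosomes), which did not pass the test (exact permutation p = 0.107). Without chromosome 8, which had 0 such summits in its window, the difference was 1.70 percentage points (exact p = 0.0244).

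The last comparison concerned stretches that carry no site of either list. Empty stretches of at least 50 kb were measured between neighbouring summits, or from a chromosome end to its nearest summit. Of these, 38 overlapped the windows and 519 lay elsewhere, which is 15.8 and 14.9 per 10 Mb. A stretch crossing a window edge was counted with the windows. Those on chromosomes 3, 4 and 8 had only 24.254, 14.85 and 25.249 kb inside, so the rates depend on that rule. At least 100 kb was reached by 7 of the 38 and by 36 of the 519. The windows had 12.6% of their length in such stretches (SD 7.61) and the rest had 10.2% (SD 2.36), higher in the windows on 7 of 12 chromosomes, a difference that did not pass the test (exact permutation p = 0.319, adjusted p = 0.435). The difference of 2.36 percentage points was 0.84 without chromosome 11 and 0.34 for stretches of at least 30 kb. Chromosome 11 had 28.4% of its window empty and chromosome 5 had 24.5%, whereas chromosome 3 had 1.21%. When these stretches were taken out of the length, the excess of shared summits in the windows was 12.1 per Mb, on all 12 chromosomes (exact p = 0.000488). Taking out length without summits raises density by construction, and by more where more is empty. That value therefore gives no separate evidence for the excess.

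Counted in stretches of at least 50 kb, the part nearest to the position was emptier than the rest of the chromosome. Windows of 500 kb on either side were among the settings fixed at the start, but their separate test was chosen after the first results had been seen. Of the 109 tested settings fixed at the start, 5 passed where the main setting had not, this one included. The adjusted p over 19 tests does not cover that choice. In the inner 500 kb on either side the empty share was 18.5% (SD 12.2), against 10.1% in the remainder of the chromosome (SD 2.35), and was higher on 10 of 12 chromosomes (exact permutation p = 0.00879, adjusted p = 0.0209 over 19 tests). Chromosome 11 had 51.3% of its inner 1 Mb empty, chromosome 12 had 28.1% and chromosome 5 had 22.2%. Chromosome 3 had 0% and chromosome 6 had 14.0%, both below their remainders of 7.21% and 14.2%. Without chromosome 11 the difference was 5.39 percentage points and passed the test (exact p = 0.0176). It did not pass for stretches of at least 30 kb (exact p = 0.402) or at least 100 kb (exact p = 0.124), or with the positions moved 500 kb to the right (exact p = 0.241), and it was -0.12 with the positions moved 500 kb to the left (exact p = 0.954).

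The 7 longest of these stretches lay on 6 chromosomes. Chromosome 2 had the longest, 166.8 kb between 13603593 and 13770383, which began 3.59 kb right of the position. Second came 158.6 kb on chromosome 11, between 12336098 and 12494706. Chromosome 4 was bare for 153.8 kb (9072054 to 9225901) and chromosome 9 for 153.1 kb (2729728 to 2882793). The stretch on chromosome 9 contained the centromere position, as did a shorter one of 53.7 kb on chromosome 8. The longest empty stretch outside the windows, 355.0 kb on chromosome 12, lay 8532.8 kb from that centromere.

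Counting shared summits only, the barest region of all windows lay on chromosome 11. No shared summit occurred over 526.3 kb from 12054132 to 12580403, which starts 54.1 kb right of the position, and only 4 list A and 2 list B summits lay between these ends. Outside the windows the longest distance between neighbouring shared summits was 417.7 kb. Next among the windows came chromosome 1 with 202.9 kb from 16725676 to 16928580, which held 9 summits of list A and 4 of list B, and chromosome 4 with 186.6 kb from 9044320 to 9230870. The shortest such maximum was 86.5 kb, on chromosome 3. In 8 of the 12 windows this longest distance lay to the right of the position and in 4 to the left. Over all gaps, these long ones included, neighbouring shared summits were a median of 10.6 kb apart in the windows and 14.9 kb elsewhere.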

How the data were processed

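DAP-seq reads were processed by the authors. The tools named in the submitters' processing notes are Bowtie2, MACS2, fastp 0.23.2, FastQC, bedtools and deepTools. Not given in the sources used here were the build of the coordinates, tool settings and the cutoff for peaks. Per the labels, libraries were sheared to about 250 bp, incubated for 1 h with the protein and read as 150 bp pairs to some 6 Gb each. The deposited lists hold sequence name, start and end only, with no value per peak, so depth and precision per site are unknown.

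Summits were interval midpoints. Chromosome length was taken as the last interval end, and these lengths sum to 373.0 Mb. Windows, shares, stretches and tests were computed with Python 3.11.15, numpy 2.4.6, pandas 2.3.3 and scipy 1.17.1, and checked on simulated lists. Each comparison used an exact two-sided permutation test that flips the signs of the 12 chromosomes' differences, with a threshold of 0.05. Chromosomes of 1 genome are not biological replicates. Fisher's exact test on pooled counts served beside it (list A, p = 0.856; list B, p = 2.84e-04) and treats summits as independent. The members and measures were chosen with earlier results of these data known. Regions named are the extremes of each table. Chains, rich bins and the separate test of the inner 500 kb were added after the first results. Sequences and genes were not analysed here, since no sequence or gene annotation known to match the coordinate build was at hand.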

Additional observations from a re-analysis of the deposited data

Results flagged for a closer look

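The excess of summits around centromeres differed between the technical pools. The log2 ratio of density, centromere window over the rest of the chromosome, averaged 0.29 in list A (SD 0.20) and 0.19 in list B (SD 0.18, n = 12 chromosomes). The difference, list A minus list B, was 0.094 (SD 0.11) and was positive on 9 of 12 chromosomes (exact permutation p = 0.02, adjusted p = 0.0429). Shared summits enter both lists. Of those called in 1 pool only, list A only summits had 38.6 per Mb in the windows and 31.4 per Mb elsewhere, and list B only summits had 24.7 per Mb in the windows and 24.4 per Mb elsewhere. It did not pass within 500 kb or with the positions moved by 500 kb to either side.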

How the results depend on the processing

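Of 109 tested settings fixed at the start, 90 kept both direction and call, and 11 more gave pooled values without a test. Of 41 added after seeing the data, 22 kept both, and of 204 that left out 1 chromosome, 193 kept both. The excess of shared summits lay between 5.19 and 12.1 per Mb and kept its call in 11 of the 12 alternatives that were tested. The value of 12.1 came with empty stretches taken out of the length, which raises density by construction.

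Within 500 kb of the positions the calls made for windows of 1 Mb on either side were lost. Differences, window minus rest, were then 5.19 (shared), 11.02 (list A), 4.92 (list B) and 5.83 summits per Mb (list A only), 3.10 points for the list B share (2.88 pooled), 0.10 for the log2 ratio between lists, 0.71 chains per Mb, 3.78 points for summits in chains and 3.68 points for rich bins; list B only was -0.26 per Mb, the list A share -1.21 points, and the empty share 8.45 points, which passed. Positions moved 500 kb to the left gave 3.77 (list A only) and -0.45 per Mb (list B only), 1.38 points for close neighbours, which passed, 0.059 for the log2 ratio between lists, 5.25 per Mb for inner minus outer part, and -0.12 points for emptiness within 500 kb. Moved to the right they gave 0.092 for the log2 ratio and 4.68 points for emptiness. Windows of 2 Mb on either side gave 0.80 points for close neighbours, which passed, and 0.35 for the pooled list A share. That pooled share was 0.29 with shared distances of 100 bp and of 500 bp; the list A share over chromosomes was -0.53 with 50 bp, -0.55 against 1 to 5 Mb and -0.43 without the outer 5 Mb. At 500 bp list B only was -0.37 per Mb, close neighbours 1.61 points and the bin variance ratio 0.48, both passing. Chains with gaps up to 1 kb gave 0.13 per Mb and 0.50 points, chains of at least 4 summits 0.28 per Mb and 2.22 points, bins of at least 12 summits 2.15 points, and emptiness within 500 kb gave 4.04 points for stretches of at least 30 kb and 5.24 points for at least 100 kb. The cause was not tested.

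Leaving out 1 chromosome gave -0.31 to 0.64 per Mb for list B only, -0.60 to 0.70 points for the list A share, 0.92 to 1.70 points for close neighbours (passing without chromosome 8) and 0.28 to 0.54 for the bin variance ratio (passing without chromosome 9 or 12). No biological replicate could be left out, since 3 are pooled in each. No paired analysis was possible because neither list carries a value per biological replicate. Without peak heights, a site missing from 1 list cannot be told apart from one just below the threshold.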
